A study of Mus musculus with 6 samples.

Results

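Pyruvate, the end product of glycolysis, can be reduced to lactate and exported, or oxidised in mitochondria. The 10 genes described here encode proteins at that branch point, and they were given by name: the lactate dehydrogenase subunits Ldha and Ldhb, the monocarboxylate transporters Slc16a1 and Slc16a3, the pyruvate dehydrogenase kinases Pdk1, Pdk2, Pdk3 and Pdk4, the pyruvate dehydrogenase subunit Pdha1 and the pyruvate dehydrogenase phosphatase Pdp1. All 10 were found among the 50686 gene identifiers in the count files, and all 10 passed the filter on low counts, which left 16729 genes. RNA sequencing compared embryoid bodies grown from induced pluripotent stem cells (iPSCs), which had been reprogrammed from gingival fibroblasts of the mouse, under intermittent compressive force (ICF) with unloaded controls, and the comparison asks which genes respond to the load. ICF was 1.5 g per square centimetre at 0.23 Hz for 24 h. The labels number the 3 ICF and the 3 control samples as donors 1 to 3, and the number is called the replicate here. Both groups had been treated with retinoic acid during embryoid body formation, attached to gelatin-coated dishes and held in serum-free medium. The iPSCs had been grown on SNL feeder cells, a fibroblast line, which were removed by selective trypsinization before the embryoid bodies were formed. Nothing in the labels states that the samples came from separate cultures, whereas the methods name independent experiments.

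In cells that ferment glucose, lactate dehydrogenase A favours the conversion of pyruvate to lactate, and the transporter MCT4, encoded by Slc16a3, carries the lactate out. The pyruvate dehydrogenase complex instead turns pyruvate into acetyl-CoA, and its kinases switch the complex off by phosphorylating the subunit that Pdha1 encodes, while its phosphatases switch it on again. Ldha, Slc16a3 and Pdk1 are textbook targets of HIF-1, the transcription factor that responds to low oxygen, and pluripotent cells are known for a high rate of glycolysis.

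The total of gene counts per sample lay between 28711166 and 34194413. Multiples of 4 made up 89.0% of the nonzero counts of ICF replicate 3 and 20.3% to 21.5% of those elsewhere. ICF replicate 3 also had a nonzero count for 20802 genes, where the other samples had 24340 to 24889. The cause of this was not tested, and the sample was used as deposited. Of 10 markers of pluripotent cells all were tested, and their summed level ran from 4367 to 5081 CPM (counts scaled to a common library size) in the control and from 3986 to 4372 CPM with ICF. Pou5f1, which defines pluripotent cells, stood between 741 and 883 CPM over the 6 samples, and Tdgf1 was the 1 gene of that list called lower (log2 fold change -0.81, adjusted p = 0.00283, edgeR). The sum of 10 fibroblast markers was 224 to 252 CPM in the control and 254 to 278 CPM with ICF. Most of it was Pdgfra, at 170 to 182 CPM over the 6 samples (log2 fold change 0.033). Col1a1 and Col3a1 were called higher (log2 fold changes 0.75 and 0.73, adjusted p = 0.0216 and 0.0482, edgeR). Col1a2 (0.61), Postn (0.49), S100a4 (0.40), Thy1 (0.066), Pdgfrb (0.056) and Dcn (-0.12) were not called, and Lum had at most 4 counts in any sample. The sum of 6 muscle markers was 4.15 to 5.71 CPM in the control and 7.63 to 9.53 CPM with ICF, and Tnnt2, a cardiac troponin gene, was the 1 called, from a mean of 2.13 to 6.47 CPM (3.04-fold higher, adjusted p = 0.00402, edgeR). Myh6 and Acta1 had log2 fold changes of -0.15 and -0.36, and Ckm and Myod1 had at most 4 counts in any sample. For 6 neuroectoderm markers the sums were 81.2 to 86.5 CPM and 73.5 to 75.6 CPM, and for 5 endoderm markers 353 to 371 CPM and 347 to 387 CPM. In these lists Cyp26a1 and Sox17 were called lower (log2 fold changes -0.70 and -0.34, adjusted p = 0.00519 and 0.0445, edgeR). The part of these shifts in the results was not tested. In such bulk samples a lower share of cells that express a gene and less RNA per cell cannot be told apart.

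Ldha and both lactate transporter genes were lower with ICF, and so were 2 of the 4 kinase genes. Of the 10 genes, Ldha, Slc16a3, Slc16a1, Pdk1 and Pdk4 were downregulated, Ldhb, Pdk2, Pdk3, Pdha1 and Pdp1 did not pass the test, and none was upregulated. The largest fall was that of Slc16a3, 4.84-fold, followed by Ldha with 3.23-fold. Calls are from edgeR's quasi-likelihood test with a Benjamini-Hochberg adjusted p under 0.05 over all 16729 genes (n = 3 per group). Over all genes tested 4.38% were downregulated and 3.47% upregulated, beside 5 and 0 of the 10 members. DESeq2 likewise called 5 lower and 0 higher, where it called 7.5% lower and 6.38% higher of the 14780 genes to which it gave an adjusted p. At an unadjusted p under 0.05 edgeR gave 6 lower and 0 higher among the members, against 13.2% and 12.4% of all genes. The median log2 fold change of the 10 members was -0.37 and that of all genes 0.003. Every ICF sample lay below every control sample in 6 of the 10 genes and in 15.7% of all genes tested. Control replicates 1 and 2 each decided part of the count, which was 3 of 10 when either was left out, against 1.46% and 1.26% of all genes. With both samples numbered 3 left out, 6 of the 10 were downregulated, against 15.6% of all genes.

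**Figure D1:**
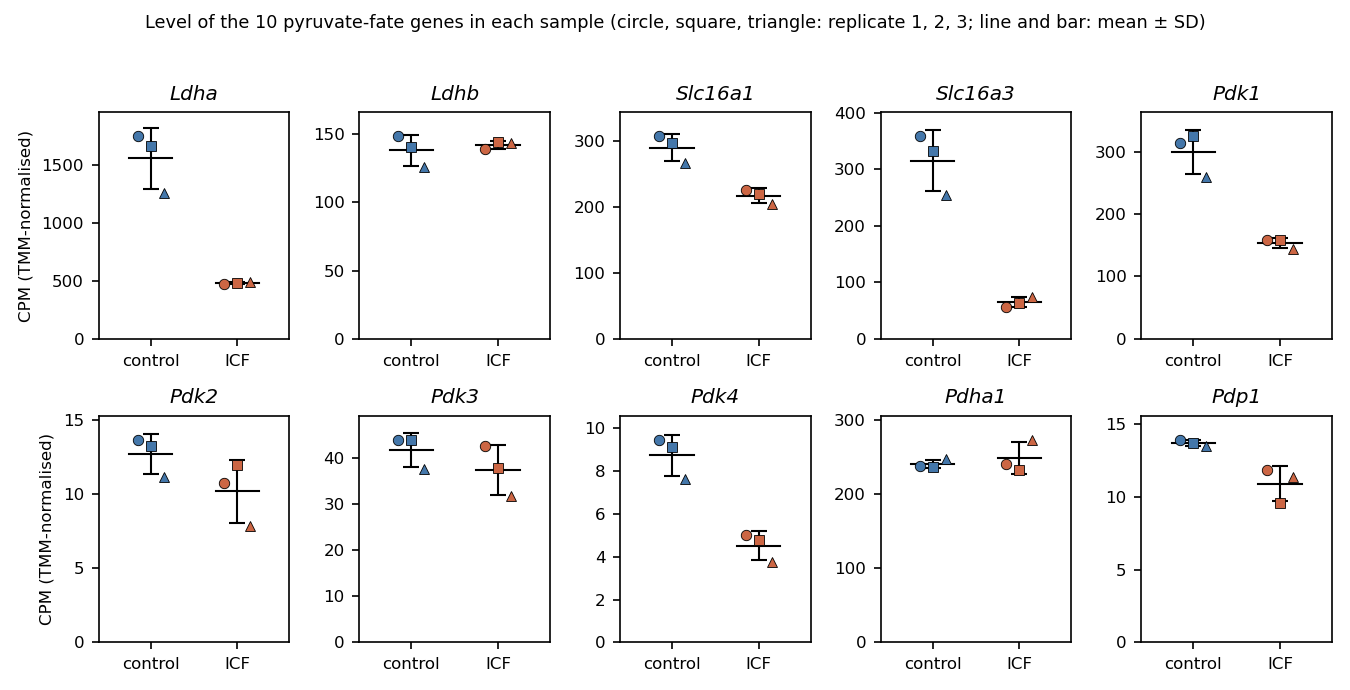
Level of each of the 10 genes in CPM after TMM normalisation (vertical axes from 0) in the 3 control and 3 ICF samples, with circle, square and triangle for replicates 1, 2 and 3 and with mean ± SD. The groups stand apart for Ldha, Slc16a1, Slc16a3, Pdk1, Pdk4 and Pdp1, and overlap for Ldhb, Pdk2, Pdk3 and Pdha1.

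The bases just before the transcription start are shown for the 3 genes of the set that are best known as HIF-1 targets, all of which fell, and for Ldhb, which did not pass. They are 250 bases of GRCm38.p6 for the first start that RefSeq lists, written 5′ to 3′ on the gene's strand. Capitals mark the core letters that HIF-1 recognises, ACGTG or GCGTG, on either strand, and overlapping matches count as 1 site. The windows are chr7:46845554-46845803 for Ldha, chr11:120948817-120949066 for Slc16a3, chr2:71872974-71873223 for Pdk1 (all forward strand) and chr6:142507958-142508207 for Ldhb (reverse strand). Those of Ldha and Slc16a3 lie within the gene bounds of GENCODE, which begin further upstream.
Ldha: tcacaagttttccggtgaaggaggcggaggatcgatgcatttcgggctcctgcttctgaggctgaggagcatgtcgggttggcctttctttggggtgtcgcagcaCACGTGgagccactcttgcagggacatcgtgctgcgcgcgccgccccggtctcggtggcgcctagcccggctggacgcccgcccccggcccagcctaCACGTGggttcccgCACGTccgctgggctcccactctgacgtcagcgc
Slc16a3: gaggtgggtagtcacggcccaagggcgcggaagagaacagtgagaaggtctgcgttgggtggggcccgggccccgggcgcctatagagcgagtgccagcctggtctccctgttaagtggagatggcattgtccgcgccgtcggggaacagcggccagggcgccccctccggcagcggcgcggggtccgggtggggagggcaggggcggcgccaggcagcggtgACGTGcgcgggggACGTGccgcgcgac
Pdk1: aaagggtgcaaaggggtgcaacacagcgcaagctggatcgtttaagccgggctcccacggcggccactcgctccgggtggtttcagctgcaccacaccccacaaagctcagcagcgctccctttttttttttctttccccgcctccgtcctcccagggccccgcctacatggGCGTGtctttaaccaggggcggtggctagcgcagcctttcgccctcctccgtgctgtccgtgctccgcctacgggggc
Ldhb: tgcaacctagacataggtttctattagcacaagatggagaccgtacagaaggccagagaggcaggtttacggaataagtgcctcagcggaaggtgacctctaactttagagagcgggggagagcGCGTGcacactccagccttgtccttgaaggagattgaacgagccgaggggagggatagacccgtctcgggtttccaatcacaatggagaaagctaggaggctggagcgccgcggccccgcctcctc

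Ldha held 3 sites, and 2 of them are the palindrome CACGTG, which the E-box motif of MYC and other factors shares. Slc16a3 held 2 sites close to its start, and Pdk1 and Ldhb held 1 each. Among the others, Slc16a1 and Pdha1 held 3 each, Pdk3 held 4, and Pdk2 and Pdk4 held 1 each. RefSeq lists a second start for Ldha, Pdk1 and Pdk2, whose windows held 1, 0 and 0 sites. The counts compared here are those of the first start. The table of RefSeq windows gave no entry for Pdp1. Of 27025 windows of the same length, 1 for each gene, 38.6% held at least 1 site, 13.5% at least 2 and 4.6% at least 3. Ldha and Slc16a1, with 3 sites each, Slc16a3, with 2, and Pdk1 and Pdk4, with 1 each, passed the test. Pdk3, with 4, Pdha1, with 3, and Pdk2 and Ldhb, with 1 each, did not. Whether the number of sites goes with the change was not tested. A match is not a binding site, and the windows are short.

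Ldha encodes the A subunit of lactate dehydrogenase, the form that prevails in muscle. The gene occupies bases 46841475 to 46855627 of chromosome 7 (GRCm38), forward strand. Its level was 1748, 1667 and 1262 CPM in control replicates 1 to 3, and 471, 482 and 494 CPM in ICF replicates 1 to 3. All 3 ICF samples were close together and far below the lowest control, which was replicate 3. On the log2 scale it differed by -1.69 (standard error 0.15, adjusted p = 0.000308, edgeR). Ranked by p, it was the 7th of the 16729 genes. The replicate number as a block gave an adjusted p of 3.5e-21 in edgeR, and the 6 fits that each lacked 1 sample gave log2 fold changes of -1.82 to -1.60. Transcripts of 4 other genes contain 5.23% of the 75-base stretches of its longest transcript, and the largest single share, 2.24%, falls to the processed pseudogene Gm5452.

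Ldhb encodes the B subunit, the form that prevails in heart, and lies on the reverse strand of chromosome 6 from 142490249 to 142507957. Control replicates 1 to 3 held 148, 139.9 and 126 CPM and ICF replicates 1 to 3 held 139, 144 and 143 CPM. The groups overlapped, and the log2 fold change was 0.041 with a 95% interval from -0.12 to 0.20 (adjusted p = 0.752, edgeR). Its sign turned with both samples numbered 3 left out. A pseudogene shares 16.7% of its possible reads. Reads aligned to several places were counted for no gene, so the Ldhb count may be too low by up to that share.

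Compared per exon length, the A subunit made up 84.2% ± 1.31 (SD, n = 3) of the summed Ldha and Ldhb level of the controls, and 61.7% ± 0.311 (SD, n = 3) of that under ICF. The summed level fell with Ldha, from 559 ± 85.8 to 236 ± 5.15 CPM per kilobase (SD, n = 3). The ratio of Ldha to Ldhb was 5.61, 5.65 and 4.76 in control replicates 1 to 3, and 1.61, 1.59 and 1.64 with ICF. The groups did not overlap, and the log2 ratio differed by -1.72 between them (p = 0.1 in a two-sided exact permutation test, which with groups of 3 cannot give less, and also 0.1 when adjusted over the 2 ratios tested). With the longest transcript in place of the merged exons as length, the A subunit's share was 88.9% in the control and 71.0% with ICF. Stretches shared with other transcripts make up 16.7% of Ldhb and 5.23% of Ldha, so the share of the A subunit may be somewhat too high in both groups.

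Slc16a3 encodes MCT4, a transporter suited to lactate export from glycolytic cells, and lies on chromosome 11 from 120948480 to 120960868 on the forward strand. Its level was 358, 333 and 255 CPM in control replicates 1 to 3, and 56.9, 64.2 and 74.4 CPM in ICF replicates 1 to 3. Replicate 3 was the lowest of the controls and the highest of the ICF samples, yet the groups remained far apart. On the log2 scale it differed by -2.28 (standard error 0.19, adjusted p = 0.000231, edgeR). It ranked 30th from the bottom among the log2 fold changes of all genes, and 5th by p. With each sample left out it stayed between -2.41 and -2.18 and past the threshold in all 6 fits. No 75-base stretch of its longest transcript occurs in another gene's transcripts.

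Slc16a1 encodes MCT1, which moves lactate and pyruvate in either direction and is found in most tissues. It lies on chromosome 3 from 104638668 to 104658462 on the forward strand. Its level was 307, 297 and 267 CPM in the control and 226, 220.4 and 205 CPM with ICF, replicates 1 to 3 in each case. The groups did not overlap, and within both of them replicate 3 was the lowest. On the log2 scale it differed by -0.42 (standard error 0.08, adjusted p = 0.0114, edgeR). The call was lost without control replicate 1 (adjusted p = 0.0621, edgeR) and without control replicate 2 (adjusted p = 0.0752, edgeR).

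The mix of transporter transcripts differed between the groups too. Per exon length, Slc16a3 made up 49.2%, 48.2% and 44.3% of the summed Slc16a3 and Slc16a1 level of control replicates 1 to 3, and 17.3%, 19.5% and 23.2% of that of the ICF samples. With the longest transcript as length its mean share was 52.3% in the control and 23.5% with ICF. Which of these genes led in the control therefore depends on the length used. The ratio of Slc16a3 to Slc16a1 was 0.970, 0.932 and 0.795 in control replicates 1 to 3, and 0.209, 0.242 and 0.302 with ICF. The log2 ratio differed by -1.85 between groups that did not overlap (p = 0.1 in the same exact permutation test, also after adjustment).

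Pdk1 encodes the pyruvate dehydrogenase kinase best known as a HIF-1 target, and lies on chromosome 2 from 71873224 to 71903858 on the forward strand. It was the most abundant of the 4 kinases, with 314, 324 and 259 CPM in control replicates 1 to 3 and 159, 158 and 144 CPM with ICF. All ICF samples lay well below the lowest control. On the log2 scale it differed by -0.96 (standard error 0.11, adjusted p = 0.000832, edgeR), and it passed the threshold in all 6 fits that left out a sample. Pdk4, on the reverse strand of chromosome 6 from 5483351 to 5496309, encodes the kinase known to be induced by fasting and by fatty acid use. It was the least abundant of the 10 genes per exon length, with 9.44, 9.10 and 7.62 CPM in control replicates 1 to 3 and 5.01, 4.78 and 3.73 CPM with ICF. These are 219 to 285 counts in the control and 108 to 174 with ICF, and the groups did not overlap. Its log2 fold change of -0.95 was close to that of Pdk1 (standard error 0.16, adjusted p = 0.00909, edgeR). Without control replicate 1 or 2 the adjusted p of Pdk4 in edgeR was 0.056 or 0.0585.

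The other two kinases did not pass the test. Pdk2, a widely expressed kinase whose gene lies on chromosome 11 from 95026258 to 95041354 (reverse strand), stood at 13.7, 13.3 and 11.2 CPM in the control and at 10.8, 12.0 and 7.87 CPM with ICF, and the groups overlapped. Its log2 fold change was -0.31 with a 95% interval from -0.68 to 0.05 (adjusted p = 0.264, edgeR). With the replicate block it passed (adjusted p = 0.0123, edgeR). Pdk3, whose gene lies on the reverse strand of chromosome X from 93764607 to 93832201, stood at 43.9, 43.8 and 37.5 CPM in the control and at 42.6, 37.9 and 31.8 CPM with ICF. Its groups overlapped too, with a log2 fold change of -0.16 and a 95% interval from -0.42 to 0.10 (adjusted p = 0.427, edgeR). In both genes ICF replicate 3 held the lowest value of all 6 samples.

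The mix of the 4 kinases also differed between the groups. Per exon length, Pdk1 made up 62.6%, 63.6% and 62.0% of the summed level of the 4 kinases in control replicates 1 to 3, and 48.7%, 50.5% and 53.6% with ICF. The share of Pdk3 was 26.6%, 26.1% and 27.3% in these controls and stood at 39.7%, 36.7% and 36.0% in the ICF samples. Pdk2 held 6.41% to 6.71% of the control sum and 7.23% to 9.42% of the ICF sum. For Pdk4 these were 3.95% to 4.17% and 3.09% to 3.41%. None of these 4 shares overlapped between the groups. They are parts of one sum, so they are tied to each other and are not 4 separate results. The larger shares of Pdk2 and Pdk3 do not stand for higher levels of these genes. Under ICF the mean of Pdk3 was 14.6 CPM per kilobase, against 16.3 in unloaded samples. For Pdk2 the means were 3.23 under ICF and 4.02 in unloaded samples, and the levels of both genes overlapped between the groups. The summed kinase level was 61.2 ± 6.60 CPM per kilobase (SD, n = 3) in the control and 38.9 ± 3.93 with ICF. Shares are a description and were not tested.

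**Figure D2:**
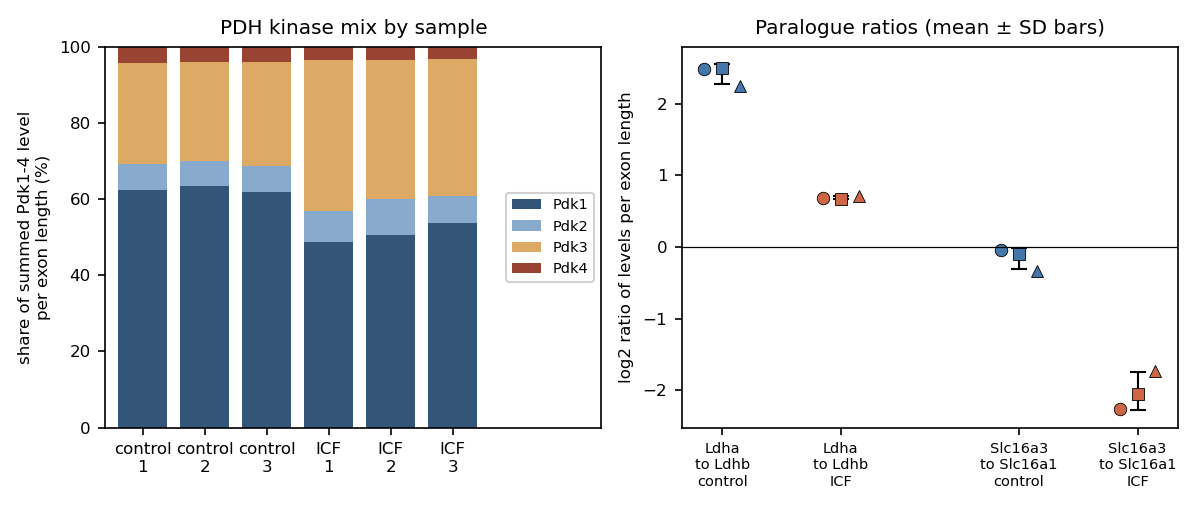
Left, share of each kinase gene in the summed Pdk1 to Pdk4 level per exon length (per cent) in each sample. Right, log2 ratio of Ldha to Ldhb and of Slc16a3 to Slc16a1 per exon length, with points for samples (circle, square, triangle for replicates 1, 2, 3) and bars for mean ± SD. The share of Pdk1 is at or above 62.0% in every control and at or below 53.6% in every ICF sample, and both ratios are lower in every ICF sample than in any control.

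Pdha1 encodes the catalytic subunit that the kinases phosphorylate, and its gene lies on chromosome X from 160122209 to 160138413 (reverse strand). Its level was 238, 237 and 247 CPM in control replicates 1 to 3 and 242, 233 and 274 CPM with ICF. The groups overlapped, with a log2 fold change of 0.050 and a 95% interval from -0.11 to 0.21 (adjusted p = 0.7, edgeR). A gene on the opposite strand, Map3k15, overlaps 13.9% of its possible reads, and whether the counting used strand is not given in the sources used here. The summed kinase level per unit of Pdha1 was 1.01, 1.03 and 0.810 in control replicates 1 to 3 and 0.647, 0.646 and 0.470 with ICF, so the groups did not overlap. Per unit of Pdp1 it was 20.2 ± 1.94 in the control and 16.2 ± 2.69 with ICF (SD, n = 3), and these groups overlapped, since ICF replicate 2, at 19.1, lay above control replicate 3.

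Pdp1 encodes a catalytic subunit of the phosphatase that opposes the kinases, and lies on chromosome 4 from 11958184 to 11966452 on the reverse strand. Its level was 13.9, 13.7 and 13.5 CPM in control replicates 1 to 3 and 11.8, 9.53 and 11.3 CPM with ICF. Every ICF sample was below every control, but the log2 fold change of -0.33 (standard error 0.10) did not pass (adjusted p = 0.0975, edgeR). It passed with the replicate block (adjusted p = 0.00792, edgeR) and with both samples numbered 3 left out (adjusted p = 0.0117, edgeR). With the block, 7 of the 10 genes were downregulated, where the share of all genes was 15.3%.

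**Figure D3:**
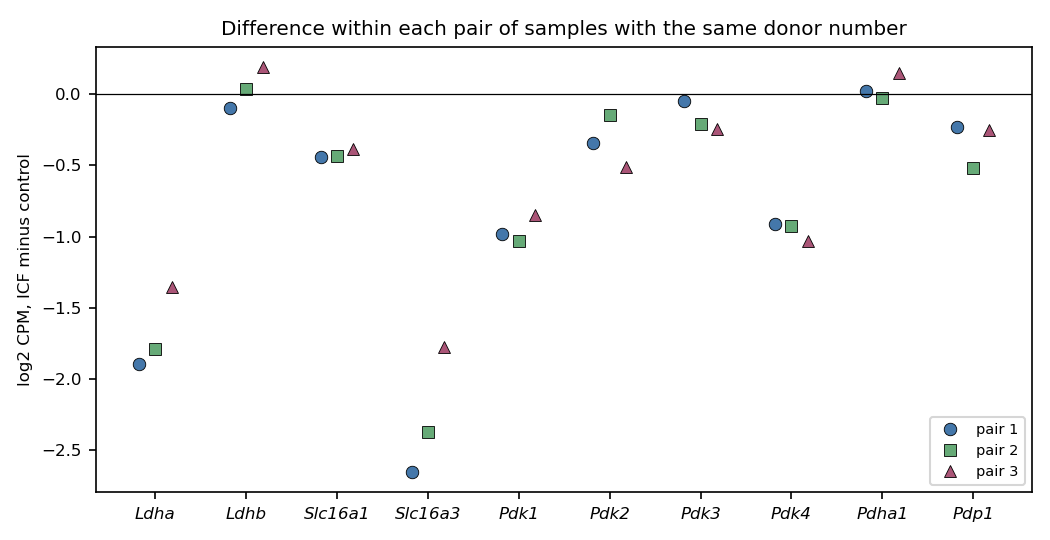
Difference in log2 CPM, ICF minus control, within each pair of samples with the same donor number, for the 10 genes (circle, square and triangle for pairs 1, 2 and 3). All 3 pairs lie below 0 for every gene other than Ldhb and Pdha1, whose pairs lie on both sides of 0.

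Within pairs of the same number, the difference of Slc16a3 was -2.66, -2.37 and -1.78 on the log2 scale in pairs 1 to 3, and that of Ldha -1.89, -1.79 and -1.35. For these genes pair 3 gave the smallest difference. That of Pdk1 was -0.98, -1.03 and -0.85, and that of Pdk4 -0.91, -0.93 and -1.03, so here pair 3 was not always the smallest. Slc16a1 differed by -0.44, -0.43 and -0.38 and was the most even of the genes that passed. Ldhb differed by -0.09, 0.04 and 0.19 in pairs 1 to 3, and the sign was not shared.

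Per exon length Ldha led the 10 genes in both groups, with 471 ± 78.7 CPM per kilobase in the control and 146 ± 3.59 with ICF (SD, n = 3), and Ldhb was the next, with 87.8 ± 7.18 and 90.3 ± 1.75. In the control Slc16a1 (65.6), Pdha1 (64.5) and Slc16a3 (59.3) followed with overlapping ranges, and then Pdk1 (38.4), Pdk3 (16.3), Pdk2 (4.02), Pdp1 (3.03) and Pdk4 (2.48) without overlap between neighbours. With ICF the order was Pdha1 (66.8), Slc16a1 (49.1), Pdk1 (19.7), Pdk3 (14.6), Slc16a3 (12.3), Pdk2 (3.23), Pdp1 (2.42) and Pdk4 (1.28). The ranges of Pdk3 and Slc16a3 overlapped in it, and so did those of Pdk2 and Pdp1. Per merged exon length, Slc16a3 thus moved from a level shared with Slc16a1 and Pdha1 to one shared with Pdk3. The order and the overlaps depend on the length used. With the longest transcript, Slc16a3 stood above Slc16a1 in the control (mean share of the pair 52.3%).

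Beyond the 10 genes, 23 others of pyruvate metabolism were listed, of which Slc16a8 and Me3 fell to the filter on low counts. Of the 21 tested, 6 were downregulated and 0 upregulated in edgeR, against 4.38% and 3.47% of all genes, with a median log2 fold change of -0.006 against 0.003. DESeq2 also called 6 lower and 0 higher, against 7.5% and 6.38% of its genes. At an unadjusted p under 0.05 edgeR gave 7 lower and 2 higher, against 13.2% and 12.4% of all genes, so that the count of higher genes was not above the background. Every ICF sample lay below every control in 7 of the 21 and above every control in 3, where 15.7% and 15.6% of all genes did so. Pkm, the pyruvate kinase that makes pyruvate in these cells, fell from 3471 ± 348 to 2022 ± 77.6 CPM (SD, n = 3), and its log2 fold change was -0.78 (adjusted p = 0.00121, edgeR). Of its possible reads 19.6% match other transcripts, so its count may be too low in every sample. Me1, the cytosolic malic enzyme, which yields pyruvate and NADPH, fell from 127 ± 2.01 to 73.3 ± 3.27 CPM (log2 fold change -0.79, adjusted p = 0.000361, edgeR). Pseudogenes share 18.9% of its reads. Its mitochondrial relative Me2 fell too, from 162, 159 and 142 CPM in control replicates 1 to 3 to 123, 128 and 114 CPM (log2 fold change -0.34, adjusted p = 0.025, edgeR).

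Bsg encodes basigin, the chaperone that brings MCT1 and MCT4 to the cell surface, and it fell from 721 ± 77.8 to 535 ± 26.2 CPM (log2 fold change -0.43, adjusted p = 0.0193, edgeR). Emb encodes embigin, a related chaperone. It stood at 319, 331 and 330 CPM in the control and at 352, 345 and 356 CPM with ICF. Every ICF sample was thus above every control, but the change did not pass (log2 fold change 0.11, adjusted p = 0.253, edgeR). A gene on the opposite strand, Gm17509, overlaps 21.5% of the possible reads of Emb, and whether the counting used strand is not given. Gpt2, which exchanges pyruvate and alanine in mitochondria, fell from 115 ± 4.43 to 89.5 ± 0.903 CPM (-0.36, adjusted p = 0.00844, edgeR). The phosphatase gene Pdp2 fell from 22.3 ± 0.513 to 17.5 ± 1.09 CPM (-0.35, adjusted p = 0.0378, edgeR), close to the change of Pdp1.

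The route of pyruvate into mitochondria gave no call in the test without the block. The carrier genes Mpc1 and Mpc2 had log2 fold changes of 0.042 and -0.072, and the complex genes Pdhb, Dlat, Dld and Pdhx had -0.086, 0.16, 0.20 and 0.059. Mpc1 was low, at 70 to 127 counts per sample, and its 95% interval was wide, from -0.43 to 0.52. A pseudogene shares 21.1% of the possible reads of Mpc1, so its count may be too low. Dld, the subunit shared with other dehydrogenases, stood at 115, 118 and 128 CPM in the control and at 134, 128 and 151 CPM with ICF, and its groups overlapped narrowly. With the replicate block, where 14.6% of all genes were upregulated, Dlat and Dld were upregulated (adjusted p = 0.0274 and 0.00379, edgeR), and Ldhc was downregulated (adjusted p = 0.0277, edgeR). Pyruvate carboxylase, Pcx, had a log2 fold change of 0.029 with a 95% interval from -0.15 to 0.21. Pdpr, Ldhc, Ldhd, Ldhal6b, Slc16a7, Pklr and Gpt did not pass either, and apart from Pdpr they were all below 10 CPM.

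**Figure D4:**
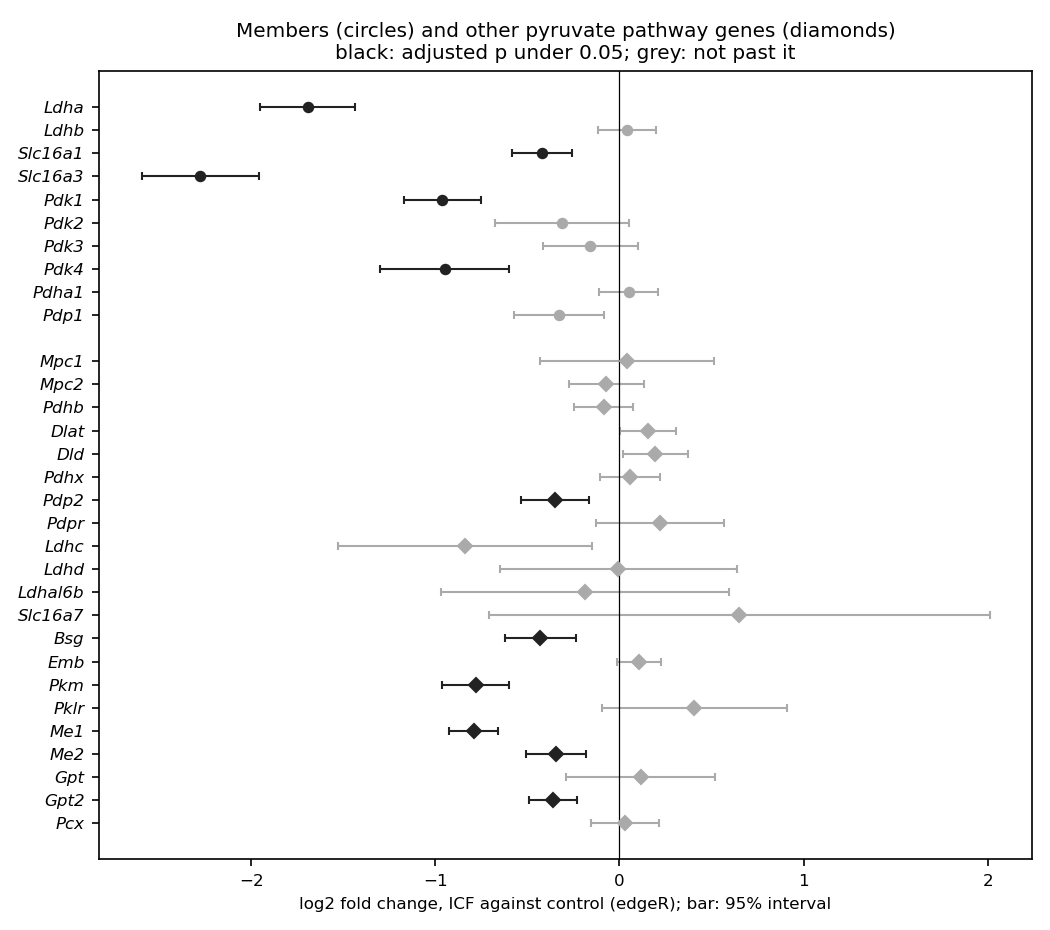
Log2 fold change of ICF against control with its 95% interval from the edgeR fit, for the 10 genes (circles) and 21 other genes of pyruvate metabolism (diamonds), in black where the adjusted p is under 0.05. Slc16a3 and Ldha lie furthest below 0, at -2.28 and -1.69, and no black point lies above 0.

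Known regulators of these genes were read as a further list of 11, of which 10 were tested and Ppara was not. In edgeR, 0 passed in either direction, with 1 higher and 1 lower at an unadjusted p under 0.05, close to the 12.4% and 13.2% of all genes. These were Hif1a, with 129, 128 and 161 CPM in the control and 177, 163 and 209 CPM with ICF (log2 fold change 0.39, adjusted p = 0.074, edgeR), and Arnt (-0.19, adjusted p = 0.0947, edgeR). DESeq2 called Hif1a (adjusted p = 0.0183), and the replicate block called Hif1a as higher (adjusted p = 1.7e-07, edgeR) and Arnt as lower (adjusted p = 0.00671, edgeR), where 14.6% of all genes were called higher and 15.3% lower. Hif1a encodes the subunit of HIF-1 that is regulated mainly as a protein, which was not measured here.

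The genes whose profile over the 6 samples was nearest to a member's were found by the root mean square distance of log2 CPM after the gene's own mean was subtracted, among 11924 other genes whose counts averaged 100 or more. For Ldha these were Ier3 (0.090), Pgk1 (0.11), Upp1 (0.13), P2ry2 (0.13) and Prelid2 (0.14), against a median distance of 0.86 over all genes. For Slc16a3 they included Bnip3 (0.13), 2610509F24Rik (0.17), Atp6v0a4 (0.17) and Aldoc (0.21), against a median of 1.16. For Pdk1 they were Eno1 (0.046), P4ha1 (0.049), Gm2a (0.050), Pde4a (0.052) and Acp6 (0.055), against a median of 0.51. Pgk1, Eno1 and Aldoc encode glycolytic enzymes, P4ha1 a collagen prolyl hydroxylase subunit and Bnip3 a mitophagy receptor. No other member was among the nearest 5 of any of these 3. The distance keeps the size of a change, so Ldha, Slc16a3 and Pdk1, at -1.69, -2.28 and -0.96, could hardly come near each other. It is no measure of whether these members vary together.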

How the data were processed

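RNA was sequenced from 3 ICF-treated and 3 control samples, as strand-specific mRNA libraries with 75-cycle single reads. The authors' steps were FastQC, Trimmomatic, HISAT2 for mapping and HTSeq for counting, and they deposited 1 table of raw counts per sample, not normalized. The submitters' processing notes name bcl2fastq 2.19 and the builds GRCm38 and hg38, and other versions are not given in the sources used here. Rows that name no gene held 38.1% to 40.3% of the summed counts in the files, mostly for alignments that were not unique, and were left out. Whether a read is entered there once or several times is not given, so this is not a share of reads.

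GENCODE M21 of GRCm38 named 50462 of 50686 identifiers. The test was the quasi-likelihood test of edgeR 4.0.16 (R 4.3.3) after TMM scaling and its default low-count filter by group, without a block. P-values were adjusted by Benjamini-Hochberg, with 0.05 as the limit. Levels per kilobase use merged exons. Standard errors come from the SDs of log2 CPM, and 95% intervals from the edgeR F statistic. The procedure was checked on simulated counts. Shared reads were counted against GENCODE transcripts, so copies outside that annotation were missed.

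The alternatives were DESeq2 1.42.0, RLE size factors, looser and stricter filters, the replicate number as a block, ICF replicate 3 divided by 4, both samples numbered 3 left out, another gene length and each sample left out. For the replicate block and the pair differences, the numbers were taken to pair the samples, and the main test leaves this pairing out. They are donor numbers in the labels, although the methods name independent experiments and no donors. Samples sharing a number also deviated together from the mean of their group (r of 0.13, 0.17 and 0.32 over genes, which are not independent). Differently numbered samples gave r from -0.31 to 0.23, and those numbered 1 and 2 correlated about as much across numbers as within them, so the correlations set apart number 3 alone. The p-values measure the spread between these samples, which may be partly technical. The members, lists and alternatives were chosen with earlier results of these data known. The genes named are the members, the listed pathway genes, regulators and markers, and the 5 nearest profiles of Ldha, Slc16a3 and Pdk1, of which 1 is not reported here.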

Additional observations from a re-analysis of the deposited data

How the results depend on the processing

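The downregulation of Ldha, Slc16a3 and Pdk1 kept its direction and its side of the threshold in all 13 alternative fits. Leaving out 1 sample at a time gave 85 to 724 genes called higher and 215 to 928 called lower, 3 to 5 members and 2 to 5 other pathway genes called lower, against 580, 733, 5 and 6. The fewest genes came without control replicate 2 and the fewest members without control replicate 1 or 2, and 2 other pathway genes were left without control replicate 1, control replicate 2 or ICF replicate 1. In the same fits the log2 fold change ran from -0.48 to -0.37 for Slc16a1, from -1.04 to -0.83 for Pdk4, from -0.022 to 0.094 for Ldhb and from -0.014 to 0.10 for Pdha1, and the sign of Ldhb turned without control replicate 3 (-0.022) and that of Pdha1 without ICF replicate 3 (-0.014). With both samples numbered 3 left out, 2466 genes were called higher and 2627 lower, 1 other pathway gene was called higher, Ldhb and Pdha1 turned to -0.029 and -0.0021, and Pdp1 passed at -0.37. With the replicate block, 2445 genes were called higher and 2561 lower, 2 other pathway genes were called higher, and Pdk2 (-0.32) and Pdp1 (-0.33) passed, and the block changed no other call among the 10 members. DESeq2 called 943 genes higher and 1109 lower. With the longest transcript as length the Pdk4 share differed by -0.50 percentage points in place of -0.77. The cause of these shifts was not tested. With 3 samples a group, exact permutation tests cannot go below 0.1. In ICF replicate 3 counts that mostly step by 4 limit the precision of low genes such as Pdk4 and Pdk2. Counting error alone is small for Ldha and largest for Pdk4.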
